A study of Mus musculus with 24 samples.

Results

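Keratins are the intermediate filament proteins of epithelial cells, and 48 keratin genes were followed across mouse lung tumours and normal lungs. They were chosen by name alone, as genes whose symbol is Krt followed by digits, and were 48 of the 18193 genes that the array measured with a probe set assigned to 1 gene. A total of 61 probe sets covered them. Where a gene had several, the set with the brightest mean across the 24 arrays stood for it. Of the 48 genes, 25 encode type I and 23 type II keratins.

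The tissue was profiled on 1-colour Affymetrix mouse expression arrays, 1 array per sample, with 14 tumours in 3 groups and 10 normal lungs in 2 groups. The tumours were nodules visible by eye that were cut from the lungs of bitransgenic mice kept on doxycycline food for 3 to 6 months. The transgene held a mutant form of EGFR, the receptor of epidermal growth factor, whose kinase mutations occur in lung adenocarcinoma. L858R activates the kinase, and T790M is known from tumours that resist EGFR inhibitors. There were 4 L858R tumours, labelled FVB mixed for strain, and 5 L858R+T790M and 5 T790M tumours, labelled FVB. The normal lungs came from littermates with no transgene or only 1 transgene, also given doxycycline. There were 5 labelled FVB mixed (mixed-strain normals) and 5 labelled FVB (FVB normals). The labels abbreviate the second transgene, which is not expanded here, and give no age or sex. They do not say whether the arrays of a group came from separate mice, so a p-value here reflects only the spread among the samples, which may be technical. Values below are log2 probe set values made with robust multi-array averaging (RMA), and differences are log2 values ± SE from limma. Calls were made below an adjusted p of 0.05.

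Keratins polymerise only as pairs of a type I and a type II chain, and each epithelium uses its own pairs. Simple epithelia, the alveolar and airway lining included, use Krt8 with Krt18, and often Krt7 and Krt19. Basal cells of stratified epithelia use Krt5 with Krt14, their upper layers use pairs such as Krt1 with Krt10 or Krt4 with Krt13, and a large set of keratins belongs to hair.

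Array medians were 7.21 to 7.25 in L858R tumours and 7.29 to 7.31 in mixed-strain normals. They were 7.26 to 7.31 in L858R+T790M and 7.26 to 7.29 in T790M tumours, against 7.31 to 7.34 in FVB normals. Tumour medians were thus at or below those of their normals, and some small calls given below did not hold after median centring. The mean over genes of alveolar type 2 cells, a cell type of the lung, was 13.33 to 14.05 on the 24 arrays. FVB normal replicate 1 stood apart for some genes of stratified epithelium, keratins among them. Krt4 was 13.34 on this array, against 6.79 to 6.96 on the other FVB normals. Krt13, the partner chain of Krt4 in the lining of the oesophagus, was 9.64 there, against 5.11 to 5.46. Lor, a protein of the cornified envelope, was 11.56 (6.64 to 6.81 on the other FVB normals), and Sprr3, another such protein, was 10.19 (6.21 to 6.41). Other genes of stratified epithelium were not raised there. Ivl, also of the envelope, was 6.04 (5.98 to 6.38), Krt1 was 6.63 (6.49 to 6.64) and Krt14 was 6.05 (5.83 to 6.11). This array held the highest of all 24 values for 7 of the 48 keratins (14.6%), against 2.76% of all genes. Krt4, Krt13, Krt78, Krt5 and Krt15 were among them, with 9.46 for Krt78, 8.55 for Krt5 and 7.29 for Krt15. Krt4, Krt13, Krt78 and Krt5 and the non-keratin genes of this paragraph were picked after their values were seen. Results against FVB normals are therefore also given without this array where it moved them.

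**Figure D1:**
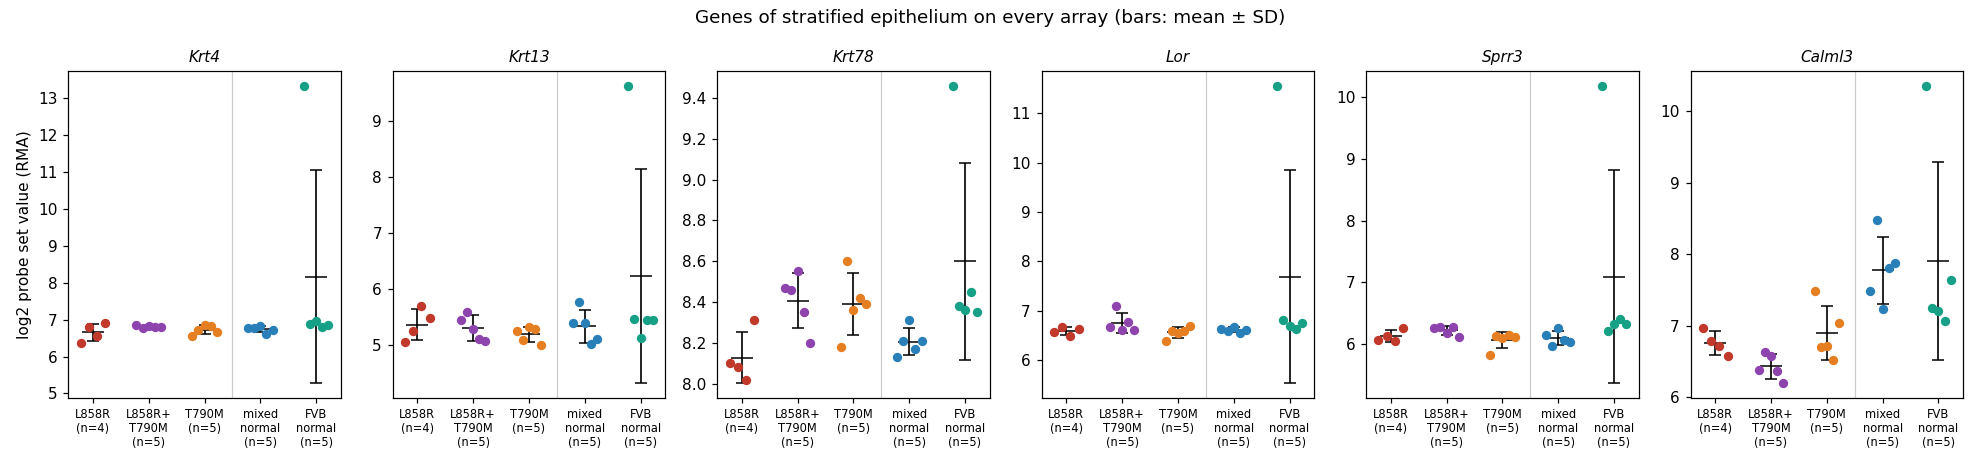
Log2 probe set values of 3 keratins (Krt4, Krt13, Krt78) and 3 other genes of stratified epithelium (Lor, Sprr3, Calml3) on every array, by group, with 1 point per array and bars for mean ± SD. FVB normal replicate 1 is the single high point in each panel, at 13.34 for Krt4 and 11.56 for Lor.

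The keratins lie in a pair of gene clusters. In the RefSeq gene table of GRCm38.p6, 24 of the type I genes are on chromosome 11 and all 23 type II genes on chromosome 15. The exception is Krt18, a type I gene that lies next to its partner Krt8 on chromosome 15, with Krt78 and Krt79 on the far side of Krt8. RefSeq promoter sequences were at hand for 32 of the 48 genes (33 entries). Of the motifs searched on both strands in the 250 bases before the start, TATAAA was in 16 of 33 keratin entries (48.5%), against 12.4% of all 32851 promoters in the table. CCAAT was in 42.4% of keratin entries and 33.8% of all promoters, and GGGCGG, the GC box, in 6.06% and 32.7%. TGANTCA, an AP-1 motif, was in 6.06% of keratin entries and 6.75% of all promoters, and GCCNNNGGC, an AP-2 motif, in 9.09% and 13.7%. These shares count letters and do not show that a factor binds.

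The 250 bases before the annotated start are printed for 4 keratins that the results turn on, chosen after their values were seen. Krt8, Krt18 and Krt23 were higher in every tumour group, and Krt79 changed in opposite directions. Capitals mark a match to a searched motif. The windows are 5′ to 3′ on the gene's strand, from GRCm38.p6, at chr15:102004343-102004592 (minus strand, Krt8), chr15:102027966-102028215 (plus strand, Krt18), chr11:99493121-99493370 (minus strand, Krt23) and chr15:101940325-101940574 (minus strand, Krt79).
Krt8: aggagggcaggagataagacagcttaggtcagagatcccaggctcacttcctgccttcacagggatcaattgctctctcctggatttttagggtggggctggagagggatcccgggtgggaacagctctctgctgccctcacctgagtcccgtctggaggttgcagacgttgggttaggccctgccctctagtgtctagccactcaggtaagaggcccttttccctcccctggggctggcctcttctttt
Krt18: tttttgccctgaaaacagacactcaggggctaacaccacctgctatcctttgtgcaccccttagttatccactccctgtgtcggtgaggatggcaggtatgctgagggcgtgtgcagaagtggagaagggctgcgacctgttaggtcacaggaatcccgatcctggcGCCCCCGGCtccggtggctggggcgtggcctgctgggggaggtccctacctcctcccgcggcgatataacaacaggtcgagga
Krt23: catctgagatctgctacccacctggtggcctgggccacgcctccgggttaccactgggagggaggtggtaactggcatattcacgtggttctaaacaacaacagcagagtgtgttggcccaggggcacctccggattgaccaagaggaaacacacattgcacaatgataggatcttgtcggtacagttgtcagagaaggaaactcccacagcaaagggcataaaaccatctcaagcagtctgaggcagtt
Krt79: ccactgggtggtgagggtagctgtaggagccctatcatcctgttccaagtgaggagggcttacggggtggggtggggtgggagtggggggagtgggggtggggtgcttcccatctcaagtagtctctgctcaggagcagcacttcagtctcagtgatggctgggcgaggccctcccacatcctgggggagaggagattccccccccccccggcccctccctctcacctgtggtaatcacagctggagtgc
One match was found in these 4 windows, an AP-2 motif (GCCCCCGGC) in Krt18, at positions -83 to -75 counted back from the start. The other windows hold none of the searched letters, which says nothing about what binds there.

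Each tumour group was first set against normals that shared its strain label. In L858R tumours 12 keratins were called, 8 higher and 4 lower, while 41.4% of all genes were called (23.3% higher, 18.1% lower). In L858R+T790M tumours 10 were called, 7 higher and 3 lower (36.2% of all genes, 20.2% higher and 16.1% lower), and in T790M tumours 13 were called, 5 higher and 8 lower (39.8% of all genes, 21.9% higher and 17.9% lower). The share of keratins called was 25.0%, 20.8% and 27.1%. Without FVB normal replicate 1, 9 keratins were called in L858R+T790M tumours (7 higher, 2 lower) and 10 in T790M tumours (4 higher, 6 lower), beside 33.3% and 36.8% of all genes. The median keratin difference was 0.08 in L858R, 0.00 in L858R+T790M and -0.06 in T790M tumours, against 0.05, 0.03 and 0.00 over all genes. L858R+T790M and T790M tumours were set against the same FVB normals, so their differences are not independent of each other.

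A few keratins carried the large differences. In each comparison 5 keratins were called with a change of at least 2-fold, against 10.8% of all genes for L858R, 8.44% for L858R+T790M and 8.43% for T790M tumours. Krt8, Krt18, Krt23 and Krt80 were among the 5 each time, joined by Krt79 in L858R and T790M tumours and by Krt19 in L858R+T790M tumours. Krt8, Krt10, Krt18 and Krt23 were higher in all 3 comparisons (12.8% of all genes were), and Krt6b and Krt80 were lower in all 3 (11.2%). In all, 19 keratins were called in at least 1 comparison and 29 in none. When all genes were split by mean value into 3 parts of equal size, 29 keratins, not the same set, fell in the dimmest part. Of these, 10.3%, 6.9% and 13.8% were called in L858R, L858R+T790M and T790M tumours. Of the 19 brighter keratins, 47.4%, 42.1% and 47.4% were called. The shares of all dim or all brighter genes are not given. The deposited table has no detection calls, so whether the dim keratins were expressed cannot be read from it.

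**Figure D2:**
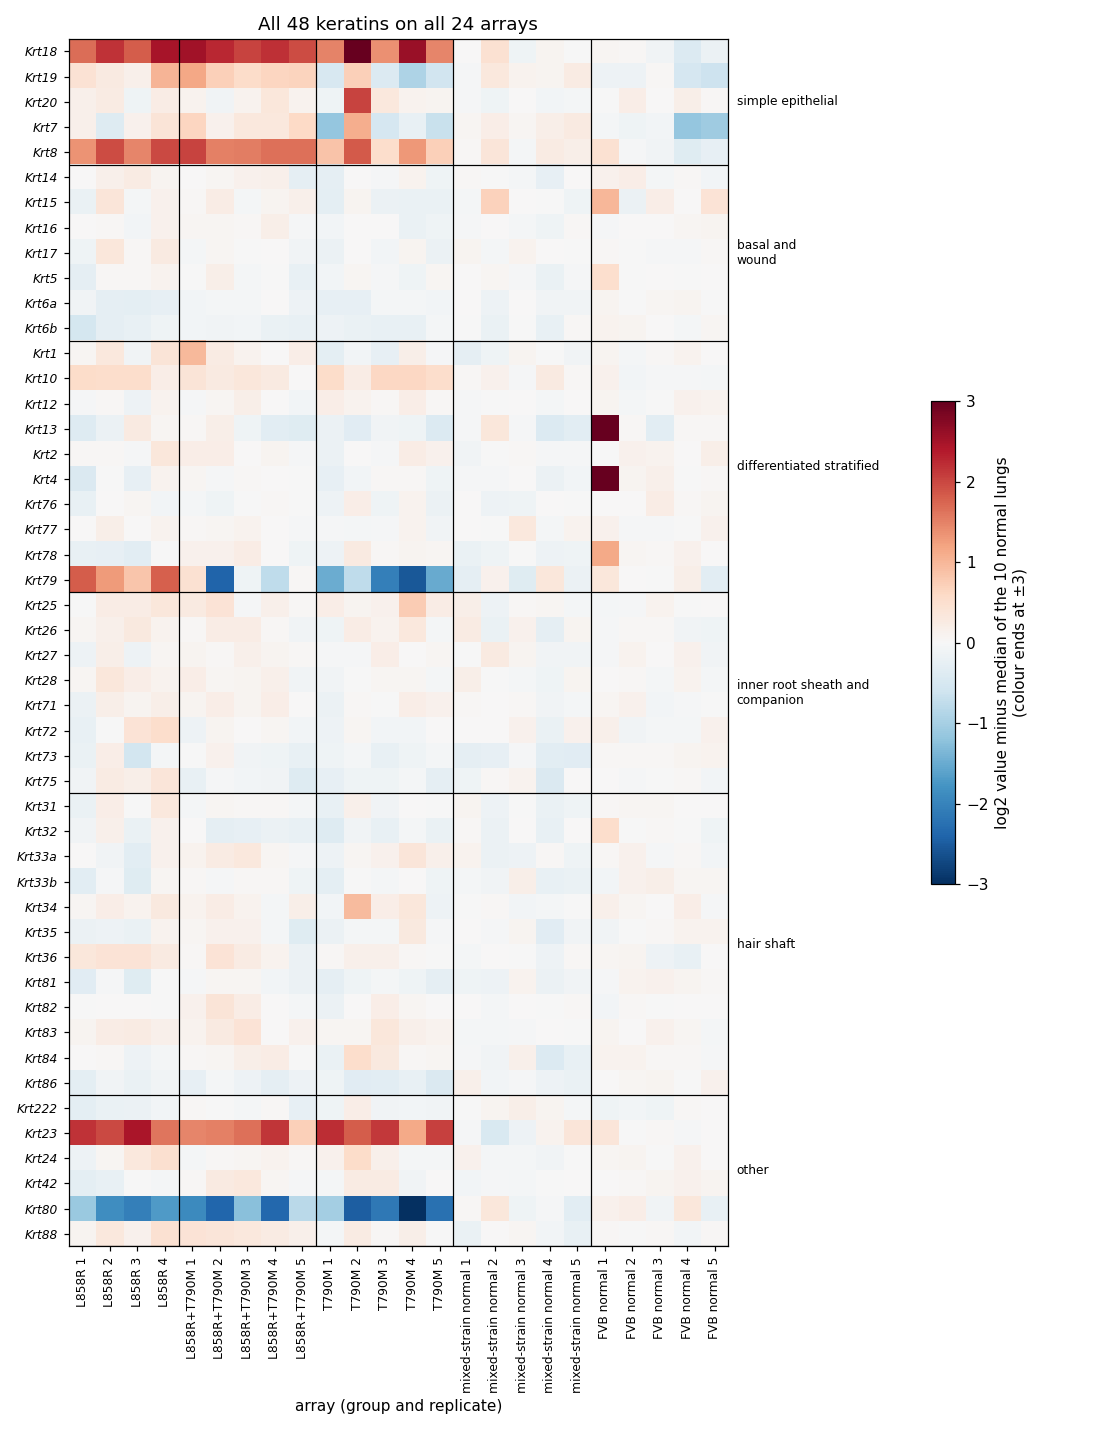
Each row is 1 of the 48 keratins and each column 1 of the 24 arrays, grouped by tumour or normal group. Colour is the log2 value minus the median of that gene over the 10 normal lungs. Krt8, Krt18 and Krt23 are red and Krt80 is blue across the tumours, and Krt79 is red in L858R and blue in T790M tumours.

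Among the keratins of simple epithelia, Krt18 and Krt8 were higher in every tumour group. Krt18 was 12.19, 12.69, 12.33 and 12.99 in L858R tumours, 13.04, 12.77, 12.54, 12.72 and 12.47 in L858R+T790M tumours and 12.00, 13.74, 11.89, 13.12 and 11.98 in T790M tumours. It was 10.53, 10.97, 10.38, 10.61 and 10.51 in mixed-strain normals and 10.59, 10.55, 10.41, 10.10 and 10.35 in FVB normals. Every tumour was above every normal lung, and T790M tumours were the most spread, with replicates 2 and 4 above the other 3. The rise was 3.86-fold in L858R (1.95 ± 0.28), 4.95-fold in L858R+T790M (2.31 ± 0.26) and 4.43-fold in T790M tumours (2.15 ± 0.26), with adjusted p-values of 1.01e-05, 1.04e-06 and 2.75e-06 by limma. These were bulk samples, in which fewer cells of a type and less RNA per cell cannot be told apart.

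Krt8, the type II partner of Krt18, was 13.12, 13.74, 13.24 and 13.76 in L858R tumours, 13.80, 13.28, 13.31, 13.42 and 13.43 in L858R+T790M tumours and 12.64, 13.62, 12.30, 13.07 and 12.50 in T790M tumours. Mixed-strain normals gave 11.81, 12.13, 11.71, 12.03 and 11.96, and FVB normals gave 12.24, 11.74, 11.68, 11.40 and 11.54. Again no tumour fell among the normals that shared its strain label, but the lowest T790M tumour, at 12.30, was close to FVB normal replicate 1, at 12.24. The rise was 2.90-fold in L858R (1.54 ± 0.21), 3.31-fold in L858R+T790M (1.73 ± 0.20) and 2.15-fold in T790M tumours (1.11 ± 0.20), with limma adjusted p-values of 6.40e-06, 1.19e-06 and 0.00016. All 3 Krt8 probe sets were called higher in each tumour group.

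**Figure D3:**
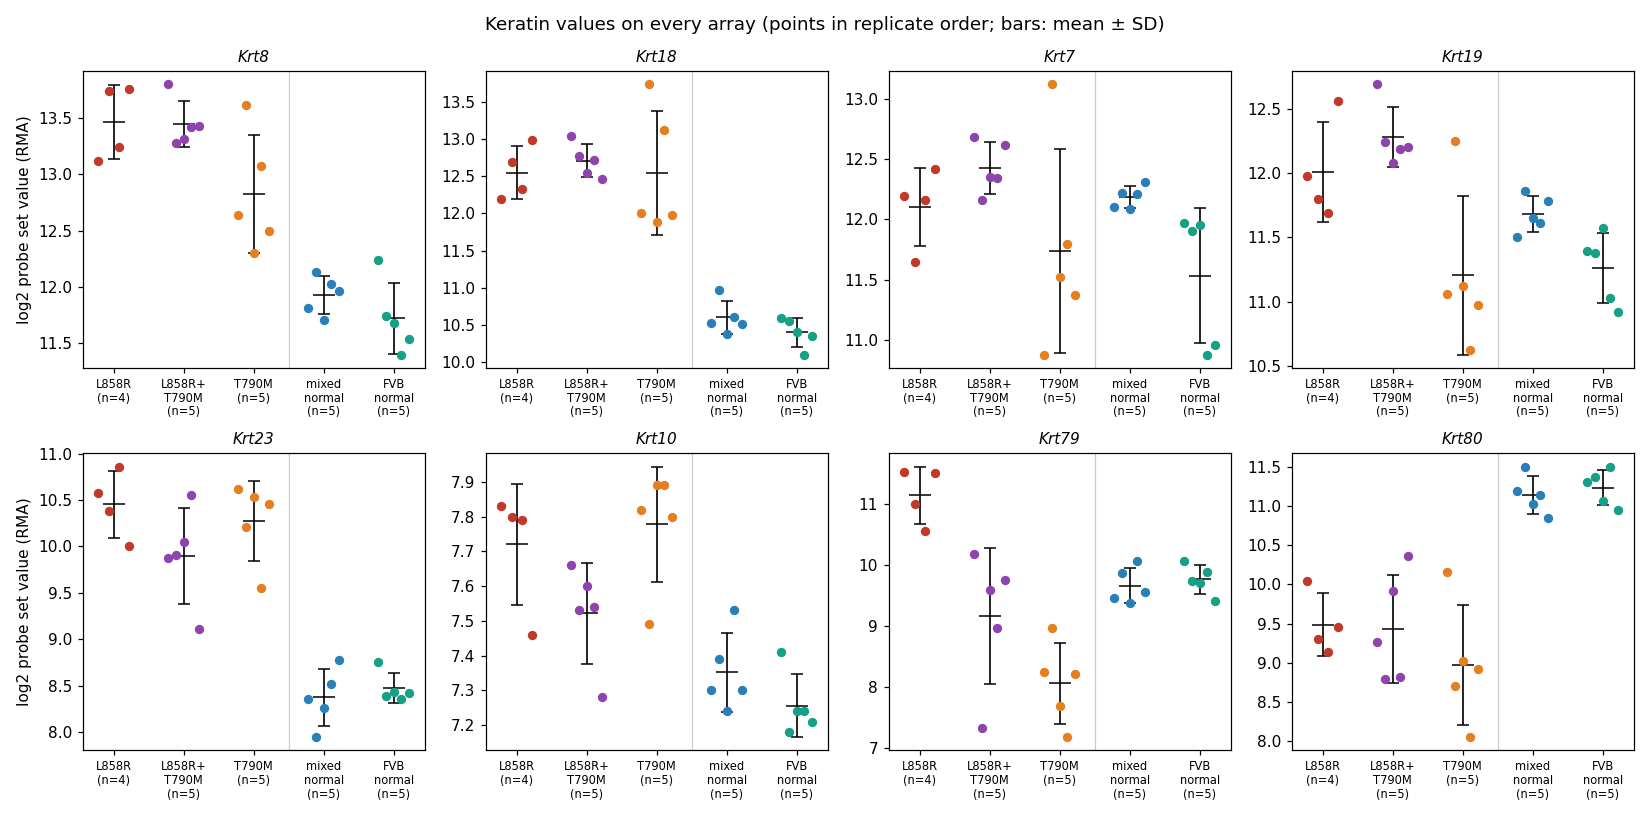
Log2 probe set values of Krt8, Krt18, Krt7, Krt19, Krt23, Krt10, Krt79 and Krt80 on every array, by group (n = 4 L858R tumours and 5 in each other group), with bars for mean ± SD. Krt18 separates all tumours from all normal lungs, and Krt79 is above its normals in all 4 L858R tumours and below them in all 5 T790M tumours.

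Krt18 and Krt8 did not change by the same amount. Within an array, Krt18 minus Krt8 was larger in tumours than in normal lungs by 0.41 in L858R, 0.58 in L858R+T790M and 1.04 in T790M tumours. The exact two-sided permutation p was 0.0159, 0.00794 and 0.00794, each the smallest that groups of this size allow, and 0.0159, 0.0119 and 0.0119 after adjustment over the 3 tests. The difference shows unequal change of the probe set values, not which chain was in excess. Leaving out 1 array at a time gave 0.365 to 0.458, 0.497 to 0.635 and 0.94 to 1.13.

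Across the 14 tumours, deviations from the group means of Krt8 and Krt18 went together, with r = 0.938 and rho = 0.886. The permutation p, shuffled within groups and adjusted over 4 keratin pairs, was 0.00168 for r and 0.0042 for rho. Without T790M replicates 3 and 5, the farthest from the median of Krt8, r was 0.906 (permutation, adjusted p = 0.0213). They were chosen by value, not by deviation from the group mean. T790M replicate 2, the highest of its group for both genes, stayed in, so dependence on that array was not tested. The other pairs did not pass: r was 0.641 for Krt8 with Krt19 (rho = 0.367) and 0.743 for Krt7 with Krt19 (rho = 0.596), both with a permutation adjusted p of 0.0989. Krt7 with Krt19 gave 0.406 without T790M replicates 1 and 2, and Krt5 with Krt14, the basal pair, gave r = 0.451 (rho = 0.224, permutation adjusted p = 0.131). The labels name no shared animal or batch, and both genes of a pair come from the same array and its scaling.

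**Figure D4:**
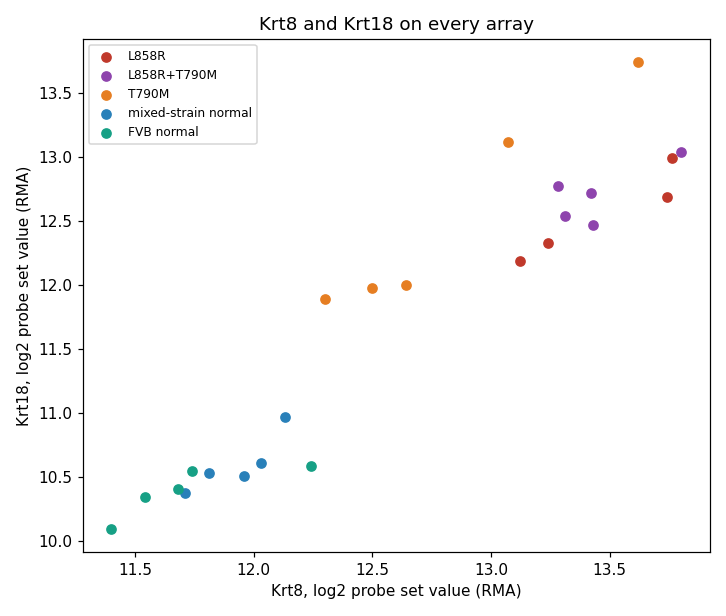
Each point is 1 array, with its Krt8 value across and its Krt18 value up (both log2). All 14 tumours lie above all 10 normal lungs for Krt18, T790M replicates 2 and 4 have the highest Krt18 values, 13.74 and 13.12, and the other 3 T790M tumours have the lowest Krt8 values of all tumours, 12.30 to 12.64.

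Krt19, a type I keratin of simple and ductal epithelia, was called in 1 tumour group. It was 12.69, 12.24, 12.08, 12.19 and 12.20 in L858R+T790M tumours, 11.06, 12.25, 11.12, 10.62 and 10.97 in T790M tumours and 11.39, 11.38, 11.57, 11.03 and 10.92 in FVB normals. Every L858R+T790M tumour was above every FVB normal, while T790M tumours were spread around the normals, with replicate 2 far above the rest. The rise in L858R+T790M tumours was 2.03-fold (1.02 ± 0.22, adjusted p = 0.000866), and T790M tumours differed from FVB normals by -0.05 ± 0.22 (adjusted p = 0.872, limma). L858R tumours, at 11.98, 11.80, 11.69 and 12.56, overlapped the mixed-strain normals, at 11.50, 11.86, 11.65, 11.61 and 11.78 (0.33 ± 0.23, adjusted p = 0.278, limma).

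Krt7, the type II keratin often found with Krt19, was also called in L858R+T790M tumours, with a wider spread. L858R+T790M tumours gave 12.68, 12.16, 12.35, 12.34 and 12.62, T790M tumours 10.88, 13.12, 11.52, 11.80 and 11.37, and FVB normals 11.97, 11.90, 11.95, 10.88 and 10.96. The FVB normals split into 3 near 11.9 and 2 near 10.9, and all L858R+T790M tumours were above them. The 2 low arrays, replicates 4 and 5, had means over alveolar type 1 genes of 11.89 and 12.06. The other FVB normals had 12.49 to 12.62, and the part of these cells in the Krt7 values was not tested. Krt7 differed by 0.90 ± 0.29 in L858R+T790M tumours (adjusted p = 0.0198, limma). It lost its call without FVB normal replicate 4 (0.73, adjusted p = 0.0669) or replicate 5 (0.76, adjusted p = 0.0631). With all 10 normal lungs as 1 group it was 0.57 (adjusted p = 0.10, limma). Krt7 differed by -0.08 ± 0.31 in L858R and by 0.21 ± 0.29 in T790M tumours, with neither called.

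Krt20, a type I keratin of intestinal and urothelial cells, was called in no comparison. It was 5.81, 7.98, 6.27, 6.05 and 6.02 in T790M tumours and 5.94, 6.14, 5.96, 6.13 and 5.98 in FVB normals, so that 1 T790M tumour stood above all the rest, the next being 6.27. The same T790M replicate 2 had the highest value of its group for Krt7, Krt8, Krt18 and Krt19, and for Cldn4, a tight junction claudin, at 8.95 (6.84 to 7.23 in the other T790M tumours). Of 7 mesothelial markers, Msln alone was highest of its group on this array, at 9.92, while the mean over the list was 6.75, within the 6.09 to 7.56 of the other T790M tumours. Cldn4 and Msln were picked after their values were seen, and their part in the keratin values was not tested.

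Krt23 and Krt80 moved far in opposite directions in all tumour groups. Krt23, a type I keratin known from stressed liver epithelium, was 10.57, 10.38, 10.86 and 10.00 in L858R tumours, 9.87, 9.91, 10.05, 10.55 and 9.11 in L858R+T790M tumours and 10.62, 10.21, 10.53, 9.55 and 10.46 in T790M tumours. It was 8.36, 7.95, 8.26, 8.52 and 8.78 in mixed-strain normals and 8.76, 8.39, 8.43, 8.36 and 8.42 in FVB normals. No tumour overlapped a normal lung. The rise was 4.22-fold in L858R (2.08 ± 0.24), 2.69-fold in L858R+T790M (1.43 ± 0.23) and 3.49-fold in T790M tumours (1.80 ± 0.23), with limma adjusted p-values of 7.34e-07, 3.96e-05 and 3.23e-06.

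Krt80, a type II keratin of epithelial cells that lies next to Krt7 on chromosome 15, was the keratin with the largest fall in each comparison. It was 10.05, 9.30, 9.13 and 9.46 in L858R tumours, 9.26, 8.79, 9.92, 8.82 and 10.36 in L858R+T790M tumours and 10.16, 8.70, 9.02, 8.05 and 8.92 in T790M tumours. Mixed-strain normals gave 11.20, 11.51, 11.03, 11.14 and 10.85, and FVB normals 11.31, 11.37, 11.07, 11.50 and 10.95. All tumours were below all normal lungs. Krt80 fell 3.16-fold in L858R (-1.66 ± 0.33), 3.51-fold in L858R+T790M (-1.81 ± 0.31) and 4.82-fold in T790M tumours (-2.27 ± 0.31), with limma adjusted p-values of 0.000337, 9.41e-05 and 8.22e-06.

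Markers of the lung's cell types moved in the same samples. Over all genes 23.3%, 20.2% and 21.9% were called higher and 18.1%, 16.1% and 17.9% lower in L858R, L858R+T790M and T790M tumours. Of 15 pan-epithelial genes, 14 were higher in L858R, 15 in L858R+T790M and 14 in T790M tumours and none was lower in any of the 3. Epcam, a cell adhesion protein of epithelial cells, was higher by 1.60 ± 0.19, 1.35 ± 0.18 and 1.54 ± 0.18. Of 9 measured alveolar type 2 genes, 7, 7 and 6 were higher and none was lower, with Napsa, a protease of these cells, higher by 1.28 ± 0.14, 0.68 ± 0.14 and 0.92 ± 0.14. Of 10 alveolar type 1 genes, 8, 6 and 9 were lower and 1, 1 and 0 higher. Of 9 club cell genes 5, 7 and 4 were lower, of 7 mesothelial genes 7, 5 and 7, and all 8 ciliated cell genes in each group, with none higher in these 3 lists. Without FVB normal replicate 1, 5 alveolar type 1 genes were lower in L858R+T790M tumours, and in T790M tumours 5 alveolar type 2 genes were higher and 3 club and 6 mesothelial genes lower. Without T790M replicate 2 the T790M counts were 5 for alveolar type 2 and 3 for club genes.

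The mean over the alveolar type 1 list was 11.07 to 11.92 in L858R tumours and 12.71 to 12.86 in mixed-strain normals. It was 10.69 to 12.03 in L858R+T790M and 9.85 to 11.61 in T790M tumours, against 11.89 to 12.62 in FVB normals. The pan-epithelial mean was 10.92 to 11.09 in L858R tumours and 9.69 to 9.94 in mixed-strain normals, and 10.46 to 11.11 in L858R+T790M and 10.68 to 11.10 in T790M tumours, against 9.62 to 9.91 in FVB normals. The alveolar type 2 mean was 13.93 to 14.04 in L858R tumours and 13.33 to 13.51 in mixed-strain normals, and 13.70 to 13.99 in L858R+T790M and 13.61 to 14.05 in T790M tumours, against 13.41 to 13.49 in FVB normals. The part of these cell types in the values of Krt8, Krt18, Krt23 and Krt80 was not tested. RMA values have no zero, so no marker can be called absent.

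Krt79, a type II keratin known from the duct of the sebaceous gland in mouse skin, was the keratin that changed in opposite directions. It was 11.53, 11.00, 10.55 and 11.51 in L858R tumours, against 9.45, 9.86, 9.37, 10.06 and 9.56 in mixed-strain normals. It was 8.24, 8.97, 7.68, 7.18 and 8.21 in T790M tumours, against 10.06, 9.74, 9.71, 9.89 and 9.41 in FVB normals. Every L858R tumour was above its normals and every T790M tumour below, with no overlap in either comparison.

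The rise of Krt79 in L858R tumours was 2.80-fold (1.49 ± 0.41, adjusted p = 0.00563), and the fall in T790M tumours 3.26-fold (-1.71 ± 0.39, adjusted p = 0.00126, limma). L858R+T790M tumours, at 10.18, 7.32, 9.59, 8.97 and 9.75, overlapped the FVB normals, and replicate 2 lay far below the rest (-0.60 ± 0.39, adjusted p = 0.245, limma). The change in L858R tumours less that in T790M tumours was 3.19 ± 0.56 (adjusted p = 0.0144, limma), the 1 keratin called in that strain-adjusted comparison, where 0.418% of all genes were called. The same difference against L858R+T790M tumours was 2.09 ± 0.56 and was not called (adjusted p = 0.167, limma). The direct difference of L858R+T790M and T790M tumours was 1.11 ± 0.39 (adjusted p = 0.14, limma).

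Among the keratins of stratified epithelium, Krt10, a suprabasal skin keratin, was higher by small amounts in each tumour group. It was 7.82, 7.49, 7.89, 7.89 and 7.80 in T790M tumours and 7.41, 7.18, 7.24, 7.24 and 7.21 in FVB normals, which did not overlap (0.52 ± 0.09, adjusted p = 0.000101, limma). The differences of 0.37 ± 0.10 in L858R (adjusted p = 0.00374) and 0.27 ± 0.09 in L858R+T790M tumours (adjusted p = 0.0247, limma) came with overlapping arrays. The L858R+T790M call did not hold when L858R+T790M replicate 1 or 3, or replicate 2 or 5 of the FVB normals, was left out (adjusted p from 0.052 to 0.0703). Krt1, the partner of Krt10, was called in no comparison.

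Krt4 and Krt13 differed from FVB normals by -1.35 ± 0.79 and -0.93 ± 0.54 in L858R+T790M tumours and by -1.44 ± 0.79 and -1.03 ± 0.54 in T790M tumours, with none of the 4 called (adjusted p from 0.133 to 0.196, limma). Without FVB normal replicate 1, Krt4 differed by -0.06 and -0.14 and Krt13 by -0.07 and -0.18.

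The other calls were small. Of the called keratins, 7 of 12 in L858R, 4 of 10 in L858R+T790M and 8 of 13 in T790M tumours changed by less than 0.6, a size set after the values were seen. The share of all called genes under that size is not given. Of all genes 41.4%, 36.2% and 39.8% were called, and 10.8%, 8.44% and 8.43% with at least a 2-fold change. Small calls were thus not particular to keratins. Among basal and wound keratins, Krt6b, which is activated in wounded skin, fell by 0.20 ± 0.07, 0.19 ± 0.07 and 0.22 ± 0.07. The falls of Krt6b were not called after each array was centred on its median (adjusted p = 0.154, 0.119 and 0.0534). Krt6a, its close relative, was -0.16 ± 0.06 in L858R and -0.17 ± 0.06 in T790M tumours and likewise lost both calls (adjusted p = 0.227 and 0.0789). Krt6a and Krt6b have similar sequences and may share probes, so they are not separate evidence. Krt15, of basal progenitor cells, was -0.45 ± 0.17 in T790M tumours and lost its call without FVB normal replicate 1 (-0.27, adjusted p = 0.169), and without FVB normal replicate 3 or 5 or T790M replicate 1, 3, 4 or 5. Krt15 also lost its call after median centring (adjusted p = 0.0778, limma), and kept it under 2 of 8 other settings. Krt6b lost its L858R+T790M call when replicate 4 or 5 of these tumours, or FVB normal replicate 1, 2, 3 or 5, was left out. In L858R tumours Krt6b did so for tumour replicate 1 or 2 and normal replicate 1, 3 or 5, and Krt6a for tumour replicate 2, 3 or 4 and normal replicate 1 or 3. The Krt6a call in T790M tumours ended without replicate 1 or 2 of these tumours. Krt5 and Krt14, which mark basal cells, were called in no comparison.

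Hair keratins, and Krt88 and Krt222 outside these classes, gave small calls as well. In L858R tumours Krt36 was higher by 0.40 ± 0.09, Krt88 by 0.33 ± 0.09 and Krt83 by 0.21 ± 0.08, and Krt222, a keratin-related gene, was lower, at -0.24 ± 0.08. In L858R+T790M tumours Krt88 was higher by 0.29 ± 0.08 and Krt86 lower, at -0.23 ± 0.07. In T790M tumours Krt86 was at -0.35 ± 0.07, Krt81 at -0.23 ± 0.08 and Krt32 at -0.27 ± 0.11, while Krt25, of the inner root sheath, was higher by 0.28 ± 0.11. Krt32 was called no more without FVB normal replicate 1 (-0.16, adjusted p = 0.174), and Krt25 no more without T790M replicate 4 (0.15, adjusted p = 0.146), whose value of 4.53 was the highest of the group. Krt32 was also lost without FVB normal replicate 3 or 4 or T790M replicate 1, 3 or 5, Krt25 without FVB normal replicate 1, 2, 4 or 5, and Krt81 without FVB normal replicate 3 or T790M replicate 1 or 5. Krt83 was called no more when L858R replicate 2, 3 or 4, or replicate 1, 2, 3 or 5 of its normals, was left out, and Krt222 when L858R replicate 1 was. Krt222, Krt81 and Krt32 lost their calls after each array was centred on its median (adjusted p = 0.0833, 0.0601 and 0.108, limma). Krt32 kept its call under 4 of 9 other settings. Hair keratins such as Krt81, Krt83 and Krt86 have near-identical relatives, and their probe sets may share signal.

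**Figure D5:**
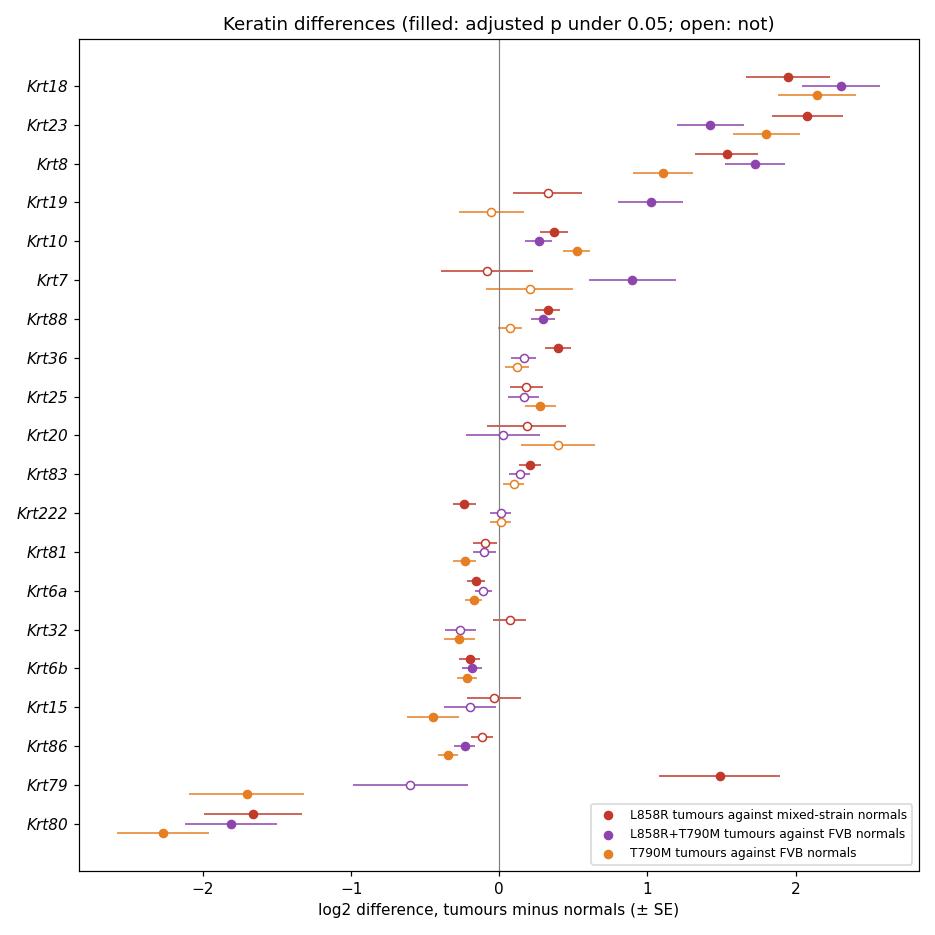
Log2 differences between tumours and their normal lungs with SE bars, for the 19 keratins called in at least 1 comparison and Krt20. Filled points were called at an adjusted p under 0.05 and open points were not. Most lie within 0.6 of zero, and Krt79 has points on both sides.

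Of the keratins called with a change of at least 2-fold, Krt8 was the 1 with several probe sets. Krt4 and Krt13, not called by any set, also had several, all high on FVB normal replicate 1. The Krt13 sets differed there, at 9.64, 9.88 and 12.06. Over all 61 probe sets, 14, 13 and 16 were called in L858R, L858R+T790M and T790M tumours. These counts come from a fit over probe sets, and the share of all probe sets called there is not given. They are therefore not read as a result about keratins. Krt42 was called in L858R+T790M tumours by its dimmer probe set (0.18, adjusted p = 0.0344) and not by the one that represents it. Krt222 was not called in L858R tumours by its dimmer set (-0.16, adjusted p = 0.079, limma). Neither dimmer set of Krt6a was called in L858R tumours (-0.108 and -0.073, adjusted p = 0.443 and 0.36, limma). In T790M tumours 1 dimmer Krt6a set was called (-0.154, adjusted p = 0.0379) and the other was not (-0.082, adjusted p = 0.559, limma).

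The remaining 29 keratins were called in none of the comparisons. In L858R tumours they ranged from -0.11 to 0.26. In L858R+T790M tumours 27 of them lay within 0.3 of zero, and in T790M tumours 26 did, with Krt4 lowest in both. Counted by overlap, the arrays of tumours and normals did not overlap for 10 keratins in L858R, 9 in L858R+T790M and 10 in T790M tumours, against 35.8%, 29.8% and 29.8% of all genes.

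Between tumour groups of 1 strain label, Krt19 was the keratin called. It was 2.11-fold higher in L858R+T790M than in T790M tumours (1.08 ± 0.22, adjusted p = 0.0167, limma), with 1.59% of all genes called. Its arrays overlapped through T790M replicate 2, and no keratin was free of overlap in this comparison (2.26% of all genes were). This call was lost without L858R+T790M replicate 1 (0.97, adjusted p = 0.0701) and with those groups alone in the fit (adjusted p = 0.271, limma). Krt8 was 0.62 ± 0.20 and Krt7 0.69 ± 0.29 higher in L858R+T790M tumours without being called (adjusted p = 0.113 and 0.227), and Krt18 differed by 0.16 ± 0.26 (adjusted p = 0.81, limma).

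This comparison depended on T790M replicate 2, the highest of its group for Krt7, Krt8, Krt18 and Krt19. Leaving that array out was bound to widen the differences in these genes, so their calls without it are not separate support. Without T790M replicate 2, 4 keratins and 2.67% of all genes were called between L858R+T790M and T790M tumours. Krt19 was higher in L858R+T790M tumours by 1.34 (adjusted p = 0.000182), Krt7 by 1.04 (adjusted p = 0.017) and Krt8 by 0.82 (adjusted p = 0.0162), and Krt10 was lower, at -0.33 (adjusted p = 0.0423, limma). Krt18 differed by 0.46 and was still not called (adjusted p = 0.248).

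L858R and L858R+T790M tumours, each less its own normals, differed in 0 keratins by limma, with 0.0715% of all genes called and 6 keratins at an unadjusted p under 0.05. Mixed-strain and FVB normals also differed in 0 keratins by limma, with 1.04% of all genes called and 3 keratins at an unadjusted p under 0.05. The arrays of the normal groups did not overlap for 3 keratins (10.4% of all genes). One of them was Krt7, at 12.10, 12.22, 12.09, 12.21 and 12.31 in mixed-strain normals, above the FVB normals given earlier (0.65 ± 0.29, adjusted p = 0.29, limma).

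Genes that anchor or modify keratin filaments changed in part. Of 10 linkers and regulators, 5 were higher and 1 lower in L858R, 5 and 2 in L858R+T790M and 4 and 2 in T790M tumours, beside 23.3%, 20.2% and 21.9% of all genes higher and 18.1%, 16.1% and 17.9% lower. In L858R+T790M tumours 1 was lower without FVB normal replicate 1, and in T790M tumours 3 were higher and 3 lower without T790M replicate 2. Fam83h, which recruits casein kinase to keratin filaments, was higher by 1.20 ± 0.22, 1.21 ± 0.21 and 1.14 ± 0.21. Eppk1, a plakin that organises keratin bundles, was higher by 0.66 ± 0.25, 0.82 ± 0.24 and 0.70 ± 0.24. Eppk1 kept its L858R call only without L858R replicate 3 or mixed-strain normal replicate 2, and lost its T790M call when FVB normal replicate 3 or 4, or replicate 2 or 4 of the tumours, was left out (adjusted p from 0.0529 to 0.0714, limma). Dst, which ties basal keratins to hemidesmosomes and has other isoforms in nerve and muscle, was lower, at -1.88 ± 0.36, -1.46 ± 0.34 and -1.78 ± 0.34. The list median was 0.20, 0.35 and 0.36, beside 0.05, 0.03 and 0.00 over all genes.

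Desmosomes, the junctions to which keratin filaments attach, had 12 measured members, of which 3, 4 and 3 were higher and 1, 2 and 2 lower. These counts are near the shares of all genes just given and show nothing particular to desmosomes. FVB normal replicate 1 was high for this list as well, with a mean of 8.83 against 7.73 to 7.83 on the other FVB normals, and with Dsc1, a desmocollin, at 9.47 against 4.01 to 4.22. The desmosome list median was 0.13, -0.13 and 0.17, and without that array 0.07 in L858R+T790M and 0.34 in T790M tumours, where 4 were then higher. Without T790M replicate 2, 2 were higher and 1 lower in T790M tumours. Pkp3, a plakophilin, was higher by 0.48 ± 0.08, 0.67 ± 0.08 and 0.46 ± 0.08, while Jup, plakoglobin, was lower, at -0.65 ± 0.12, -0.33 ± 0.11 and -0.45 ± 0.11. The L858R+T790M call of Jup was lost when FVB normal replicate 4, or replicate 1 or 5 of the tumours, was left out (adjusted p from 0.0585 to 0.086, limma). Of the 18 other intermediate filament genes, 2 were higher in each tumour group and 5, 5 and 8 were lower, with list medians of -0.10, -0.07 and -0.13. In L858R+T790M tumours 4 were lower without FVB normal replicate 1, and in T790M tumours 5 were lower without T790M replicate 2. Synm, synemin of muscle, was lower, at -3.56 ± 0.37, -2.95 ± 0.35 and -2.56 ± 0.35. Vim, the vimentin of mesenchymal and endothelial cells, was lower, at -1.09 ± 0.29, -1.08 ± 0.27 and -1.16 ± 0.27. Of 8 endothelial genes, 7, 8 and 7 were lower in the same tumours, and their part in the Vim values was not tested.

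Of 11 measured genes of the cornified envelope, the protein shell of stratified epithelium, 3, 3 and 2 were higher and none was lower. In T790M tumours 2 were higher and 1 lower without FVB normal replicate 1, and 1 was higher without T790M replicate 2. Beside these counts, 23.3%, 20.2% and 21.9% of all genes were higher and 18.1%, 16.1% and 17.9% lower in the 3 tumour groups. Ivl, involucrin, was 9.23, 11.18, 9.69 and 9.51 in L858R tumours, 10.83, 9.77, 9.60, 10.14 and 9.77 in L858R+T790M tumours and 7.23, 9.87, 7.49, 7.09 and 5.94 in T790M tumours. It was 5.78 to 5.98 in mixed-strain normals and 5.98 to 6.38 in FVB normals, so that 1 T790M tumour lay below every normal of its label. The rise of Ivl was 4.03 ± 0.49 in L858R, 3.88 ± 0.46 in L858R+T790M and 1.38 ± 0.46 in T790M tumours (limma adjusted p-values 1.53e-06, 1.71e-06 and 0.0214). T790M replicate 2 carried much of the last, which was 0.80 ± 0.32 and not called without it (adjusted p = 0.0591, limma). It was 2.50 ± 0.46 higher in L858R+T790M than in T790M tumours (adjusted p = 0.00964, limma). Tgm1, the transglutaminase that crosslinks the envelope, was higher by 2.01 ± 0.34, 2.18 ± 0.32 and 1.27 ± 0.32. The list median was 0.11, -0.26 and -0.20. FVB normal replicate 1 was high for Lor and Sprr3 of this list, as given earlier, with a list mean of 7.63 against 6.06 to 6.09 on the other FVB normals. Without it the list median was -0.01 in L858R+T790M and 0.00 in T790M tumours.

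A transitional alveolar state, known from injured mouse lung, is marked by high Krt8 and 12 genes of its list were measured, Krt8 among them. In L858R tumours 5 were higher and 1 lower, in L858R+T790M tumours 8 and 0, and in T790M tumours 2 and 1. The shares of all genes were 23.3%, 20.2% and 21.9% higher and 18.1%, 16.1% and 17.9% lower. The list median was 0.66, 1.02 and 0.23. Clu, clusterin, was higher by 1.18 ± 0.36, 1.81 ± 0.34 and 1.42 ± 0.34. Between L858R+T790M and T790M tumours 3 of the list were higher and 0 lower, with 1.59% of all genes called. Without T790M replicate 2 the counts were 6 and 0, with 2.67% of all genes called. That array was the highest of its group for Krt8, a member of the list, so these counts are not separate support. Of 10 basal cell genes, 1 was higher in each tumour group and 2, 1 and 3 were lower, with Krt5, Krt14 and Krt15 among the 10. Without FVB normal replicate 1, 2 basal cell genes were lower in T790M tumours.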

How the data were processed

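Total RNA of 24 lung samples was hybridised to 1 array each. The deposited values are log2 probe set values which per the submitters' processing notes the authors produced with RMA. The version of RMA and any batch are not stated in the sources used here. No further normalization was applied. Of 45101 probe sets, 34945 had 1 gene by the platform annotation, and 1 keratin probe set, assigned to both Krt17 and Krt14, was left out. Symbols were updated by Entrez identifier. Arrays hold no counts, so the 4 or 5 arrays of a group limit the precision.

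limma 3.58.1 in R 4.3.3 fitted 5 group means to 18193 genes (eBayes with a trend, 19 residual degrees of freedom). Tests were two-sided, with Benjamini-Hochberg adjustment over all genes in each of 7 comparisons, and the model was tested on simulated data. Single values were compared by exact permutation, and pairs of keratins with 100000 permutations within groups (scipy 1.17.1, Python 3.11.15). L858R was compared with the other tumours after subtraction of each group's normals.

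The keratins and lists were chosen with earlier results of these data known. Named are the simple epithelial keratins, keratins called in any comparison, and of each other list the 4 members with the largest mean difference among those called in all 3 tumour comparisons. From these 4, examples are given. Exceptions are stated where they occur. Alternatives covered scaling, probe set choice, dim genes, array weights, the eBayes trend, the groups fitted, pooled normals, the direct difference between tumour groups, a replicate block and each array left out in turn. Counts of list members and of all genes without FVB normal replicate 1 or T790M replicate 2, and refits of the list genes given with values without each array, were added after the data were seen.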

Additional observations from a re-analysis of the deposited data

Results flagged for a closer look

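The keratins given here are the 24 named above, among them Krt4, Krt13, Krt78 and Krt5, which were picked for values that stand out, so their number is not set against chance. In 17 of their 120 sets of values (5 groups each) the highest or lowest array stood far from the others of its group. Over all 48 keratins this held in 18 of 240 sets, where chance gives about 1 in 20.

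FVB normal replicate 1 was the high array for 7 of them. It held 13.34 for Krt4, 9.64 for Krt13, 9.46 for Krt78, 8.55 for Krt5, 8.43 for Krt32, 8.76 for Krt23 and 7.41 for Krt10. Values of stratified epithelium genes on this array are given above, and their part in these keratin values was not tested.

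T790M replicate 2 was high for Krt20, at 7.98, and for Krt222, at 6.63, and low for Krt10, at 7.49. T790M replicate 4 was high for Krt25, at 4.53. L858R+T790M replicate 1 was the high array for Krt8, at 13.80, and for Krt19, at 12.69. In L858R tumours replicate 4 was low for Krt10, at 7.46, and replicate 1 low for Krt5, at 7.79. Among mixed-strain normals replicate 2 was high for Krt15, at 6.98, and replicate 3 high for Krt81, at 9.11.

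A pair of keratins differed between tumour groups by a test of the difference itself. Krt79 differed by 3.19 between L858R and T790M tumours, each less its own normals. Krt19 differed by 1.08 between L858R+T790M and T790M tumours, compared directly. As given above, this call was lost without L858R+T790M replicate 1 and with those groups alone in the fit.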

How the results depend on the processing

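Krt8, Krt18, Krt23, Krt80 and Krt79 kept each of their calls against normals, and Krt79 its call between L858R and T790M tumours, under the other settings and without each array. Over the 37 calls of single keratins, 286 of 323 values under other settings and 313 of 367 with an array left out stayed called, and 0 changed direction. The count in T790M tumours (13, with 5 higher and 8 lower) was 8 (5 higher, 3 lower) with each array centred on its median and 8 with all 10 normals pooled, and it split into 5 and 5 after quantile normalization. The L858R count (8 higher, 4 lower) was 13 and 1 after median centring and 10 and 2 after quantile normalization, and the L858R+T790M count (7 and 3) was 10 and 2, and 8 and 2. Between L858R+T790M and T790M tumours 6 keratins were called with array weights and 0 with those groups alone in the fit, against 1. Between the normal groups 5 and 2 were called under the same settings, against 0. By direct difference, 1 keratin was called between L858R and L858R+T790M tumours and 2 between L858R and T790M tumours. Leaving out 1 array gave 9 (without L858R replicate 2) to 16 (without L858R replicate 1) in L858R, 8 to 11 in L858R+T790M and 9 to 12 in T790M tumours, and 0 (without L858R+T790M replicate 1) to 4 (without T790M replicate 2) between the FVB tumour groups. The other 3 comparisons gave 0, 1 and 0 throughout. The correlation of Krt5 with Krt14 was -0.171 without L858R replicate 1 and L858R+T790M replicate 5. The replicate number, entered as a block, gave 11, 9 and 11 keratins against normals, 1 between the FVB tumour groups, 0 and 1 in the strain-adjusted comparisons and 0 between normals. Same-numbered arrays correlated between -0.284 and 0.44 in their deviations. Between L858R+T790M and T790M tumours all 5 pairs were positive, at 0.003 to 0.44. Arrays of different numbers were not compared, so these values do not show whether the numbers pair samples. The shares of all genes called under these other settings are not given, so these counts are not read as a result about keratins. The cause of the shifts in the counts was not tested. Dim keratins have small differences near the spread between arrays, and the number of arrays limits the precision.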
